A study of Homo sapiens with 21 samples.

Results

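The 10 genes described here are the ligands TGFB1, TGFB2 and TGFB3, the latent binding proteins LTBP1, LTBP2, LTBP3 and LTBP4, and the receptors TGFBR1, TGFBR2 and TGFBR3 of the transforming growth factor beta (TGFb) pathway. They were chosen by symbol as the core of that pathway, and all 10 of 10 were found in each of the 2 deposited expression tables.

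The study sequenced mRNA from PC-9, an established human lung cancer cell line that grows with an activating deletion in the EGFR gene. Cells were stained for EGFR and sorted in 6 rounds for the lowest or the highest EGFR signal, which gave an EGFR-low and an EGFR-high population. The series holds 21 bulk libraries in 7 groups of 3, from 2 experiments with 9 and 12 libraries. The untreated experiment compared 3 groups, unsorted parental cells, EGFR-low cells and EGFR-high cells, each collected 24 h after seeding with no treatment. The vorinostat experiment treated EGFR-low and EGFR-high cells for 72 h with DMSO, the solvent, or with 1 uM vorinostat (SAHA), a histone deacetylase inhibitor, which makes the other 4 groups. All groups are labelled as 1 cell line with an EGFR deletion. The genotype is labelled EGFR delE746-A750 in the first parental library, and the last residue then rises by 1 from sample to sample up to EGFR delE746-A770.

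As background, TGFb ligands are secreted in a latent form, in which each mature dimer stays wrapped in its own propeptide and is usually tied to a latent binding protein that anchors it in the extracellular matrix. Integrins that carry the alpha v chain can pull the propeptide of some ligands open and free the growth factor. The free ligand brings the kinases TGFBR2 and TGFBR1 together, which phosphorylate SMAD2 and SMAD3, while TGFBR3, also called betaglycan, is a co-receptor that presents ligand, TGFB2 above all. In carcinoma cells the pathway is known both for holding back growth and for driving the change from an epithelial to a mesenchymal state.

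Levels are given in FPKM, fragment numbers divided by transcript length and by library size, as the authors deposited them, so levels of different genes are compared per length. A change was tested with limma on log2(FPKM + 1) over all genes that reached 1 FPKM in 3 or more of an experiment's libraries, and is called when its Benjamini-Hochberg adjusted p, over all genes tested, is under 0.05. Fold changes are on the log2 scale of FPKM + 1 with their standard error (SE) and n = 3 libraries a group. The libraries of a sorted group come from the same sorted population, so a p-value measures spread between libraries and not between sorts. The 1 added to FPKM shrinks fold changes of genes at low levels, so the size of these depends on that choice. Since RNA was measured in bulk, fewer cells with a transcript and less of it in each cell cannot be told apart.

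The EGFR level was checked against the labels. In untreated cells EGFR stood at 60.2, 26.5 and 60.6 FPKM in the EGFR-low libraries and at 269, 160 and 243 in the EGFR-high libraries. With DMSO or vorinostat it stood at 43.3, 17.7 and 19.4 FPKM in EGFR-low DMSO, 19.7, 16.1 and 18.2 in EGFR-low vorinostat, 83.3, 152 and 109 in EGFR-high DMSO and 196, 101 and 207 in EGFR-high vorinostat. Every library labelled EGFR-low thus had less EGFR mRNA than every library labelled EGFR-high. The fold change was -2.23 (SE 0.40, adjusted p = 0.0109) untreated, -2.13 (SE 0.35, adjusted p = 0.00057) with DMSO and -3.09 (SE 0.35, adjusted p = 4.55e-05) with vorinostat. The untreated call was lost without EGFR-high replicate 1 (-2.08, adjusted p = 0.0506) or without EGFR-high replicate 3 (-2.15, adjusted p = 0.0536).

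Libraries of the vorinostat experiment stood apart in ways that bear on every result from it. Across genes, which are not independent replicates, the libraries labelled EGFR-low in DMSO correlated with the untreated EGFR-low libraries at only 0.756 to 0.867, and those in vorinostat at 0.754 to 0.798. The EGFR-high DMSO libraries correlated with the same untreated EGFR-low libraries at 0.884 to 0.928. A set of 85 genes with at least 5 FPKM in all untreated libraries lay under 0.5 FPKM in all 3 EGFR-low vorinostat libraries, and a set of 66 genes under 0.1 FPKM in all untreated libraries reached at least 5 FPKM there. The median of the 85 genes was 3.86, 0.117 and 0.0667 FPKM in the EGFR-low DMSO libraries against 19.5, 18.9 and 13.2 in the EGFR-high DMSO libraries. The median of the 66 genes was 0.0251, 0.0259 and 3.99 FPKM in EGFR-high DMSO and 0.439, 0.034 and 0.0303 in EGFR-high vorinostat. EGFR-low DMSO replicate 1 and EGFR-high DMSO replicate 3 therefore lay between the populations. The vorinostat libraries numbered 1 differed in another way, since mitochondrial transcripts made up 22.3% of FPKM in EGFR-low vorinostat replicate 1 and 24.2% in EGFR-high vorinostat replicate 1, against 6.58% to 18.6% in the other 19 libraries. No member belongs to the set of 85 genes. The identity of the cells in these libraries was not tested, and what a difference between EGFR-low and EGFR-high means in this experiment depends on it. Results of the vorinostat experiment are given below with all libraries and, where that changes a call, without these 4, a choice made after seeing the data.

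Markers of cell types were read in all 21 libraries. All 6 epithelial markers passed 1 FPKM in every group, with KRT8 or KRT7 the most abundant. Their summed level was 1801 to 3015 FPKM in untreated EGFR-low, 3134 to 4045 in EGFR-high and 2076 to 3212 in parental cells, and 1552 to 1864 in EGFR-low and 2681 to 3627 in EGFR-high of the vorinostat experiment. The genes of the list did not move together. Untreated CDH1 was 85.8, 56.8 and 86.4 FPKM in EGFR-low and 53.5, 46.7 and 68.8 in EGFR-high, higher in each pair of the same number. KRT8, KRT19 and EPCAM were lower in each of these pairs, and KRT7 and KRT18 went both ways. In the vorinostat experiment KRT8 was 138 to 348 FPKM in EGFR-low and 640 to 1080 in EGFR-high, with KRT18 and KRT19 in the same direction. CDH1 went the other way, at 108 to 138 against 48.0 to 76.4 FPKM, while EPCAM (232 to 282 against 171 to 234) and KRT7 (400 to 551 against 515 to 698) overlapped. The fibroblast list summed to 1.02 to 5.88 FPKM, of which COL1A1 alone passed 1 FPKM, and the other 7 genes of 8, PDGFRA, PDGFRB and DCN among them, stayed under it. Of 5 immune genes, CD68 carried a summed level of 15.3 to 39.9 FPKM, while PTPRC and CD3E stayed under 1 FPKM. PTPRC, CD3E and MS4A1 stood above their level elsewhere in both libraries between the populations, at 0.805, 0.937 and 1.18 FPKM in EGFR-low DMSO replicate 1 and 0.200, 0.290 and 0.329 in EGFR-high DMSO replicate 3. In the other 19 libraries PTPRC reached at most 0.0524 FPKM, CD3E at most 0.0447 and MS4A1 0. The source of this RNA was not tested. Of 3 endothelial genes found, CDH5 or KDR led a summed level of 2.27 to 8.30 FPKM, and VWF stayed under 1 FPKM. CDH5 was 5.59 to 8.30 FPKM in untreated EGFR-low and 2.68 to 4.26 in EGFR-high. KDR passed 1 FPKM only in the libraries labelled EGFR-low of the vorinostat experiment, and CD14 did so in 5 of those 6. The part of these markers in the results was not tested.

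Across the 7 groups the members kept a wide spread of levels. LTBP3 had the highest group mean of the 10 in all 7 groups, from 23.6 FPKM in parental cells to 87.7 in EGFR-high vorinostat. In parental cells the order of the means went on with TGFBR1 at 15.6, TGFB2 at 12.9, LTBP2 at 11.2, TGFBR2 at 7.90, TGFB1 at 7.13, TGFBR3 at 6.01, LTBP1 at 3.86, LTBP4 at 2.51 and TGFB3 at 0.29 FPKM. Neighbours in this order had overlapping libraries, apart from LTBP4 and TGFB3. TGFB3 had the lowest mean in the 3 untreated groups and both EGFR-high groups of the vorinostat experiment, and TGFBR3 took that place in EGFR-low DMSO and EGFR-low vorinostat.

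**Figure D1:**
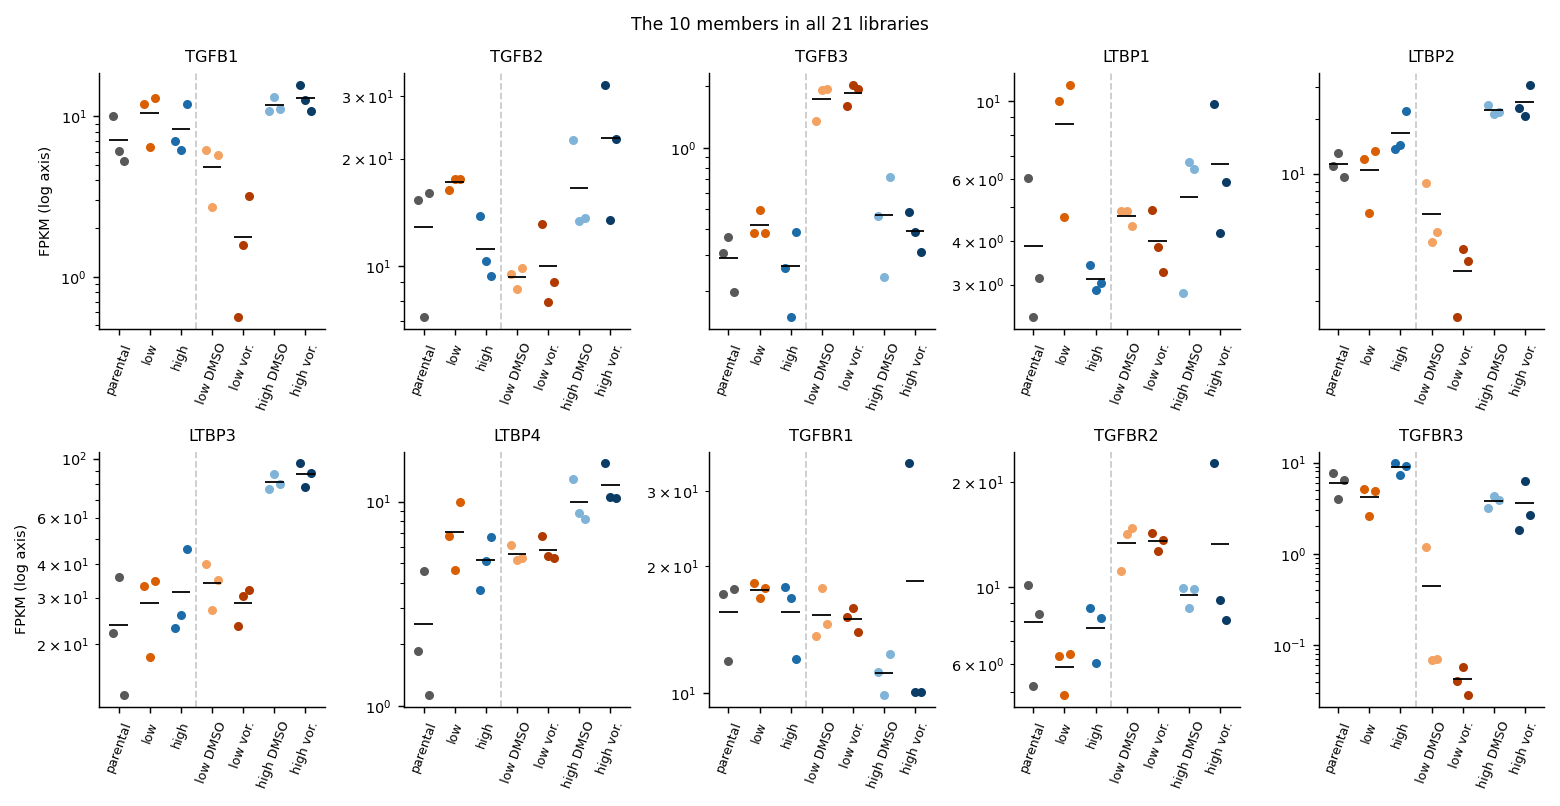
FPKM of each member on a log axis in all 21 libraries, 1 point per library and a bar at the group mean, with the untreated experiment left of the dashed line. TGFB1, LTBP2, LTBP3 and TGFBR3 are lower, and TGFB3 is higher, in the libraries labelled EGFR-low of the vorinostat experiment than in its EGFR-high libraries.

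The 3 ligands bind the same receptors but differ in how integrins reach them, and the difference can be read in their coding sequence. Alpha v integrins bind an arginine, glycine and aspartate run in the propeptides of TGFB1 and TGFB3. In the GENCODE 29 transcripts, TGFB1 holds 1 in-frame run of codons for these residues in 390 codons, TGFB3 holds 1 in 412, and TGFB2 holds 0 in 442. The run lies in exon 5 of TGFB1 at chr19:41342005-41342013 and in exon 5 of TGFB3 at chr14:75963453-75963461 (GRCh38, both on the minus strand). It is shown in capitals with 21 bases on either side, because the ligand that was most abundant in 20 of the 21 libraries, TGFB2, has no such run.
TGFB1: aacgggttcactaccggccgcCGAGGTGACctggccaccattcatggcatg
TGFB3: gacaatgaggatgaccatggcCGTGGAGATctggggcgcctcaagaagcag

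TGFB2, the ligand of highest level in most libraries, stood at 15.4, 7.20 and 16.1 FPKM in the parental libraries, 16.4, 17.5 and 17.5 in EGFR-low and 13.8, 10.4 and 9.39 in EGFR-high. After 72 h with DMSO or vorinostat it stood at 9.52, 8.63 and 9.90 FPKM in EGFR-low DMSO, 13.1, 7.93 and 9.01 in EGFR-low vorinostat, 22.6, 13.4 and 13.7 in EGFR-high DMSO and 32.2, 13.5 and 22.7 in EGFR-high vorinostat. Untreated EGFR-low libraries were thus above all EGFR-high and parental ones, whereas the libraries labelled EGFR-low of the vorinostat experiment were below the EGFR-high ones with either agent. The fold change of EGFR-low over EGFR-high was 0.59 (SE 0.30, adjusted p = 0.449) untreated and -0.72 (SE 0.29, adjusted p = 0.0538) with DMSO, neither of them called. With vorinostat TGFB2 was lower in EGFR-low, by -1.06 (SE 0.29, adjusted p = 0.00801). The DMSO difference was called in 8 of the alternative fits, among them the 1 without the vorinostat libraries numbered 1 (adjusted p = 0.0184) and the 1 without all 4 libraries that stood apart (-0.85, adjusted p = 0.0224), in a range of 0.00594 to 0.0902 over the alternatives other than single libraries left out. With 1 library left out it was called in 0 of 6 fits (adjusted p of 0.0545 to 0.208).

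TGFB1, the ligand best known from immune and stromal regulation, stood at 10.0, 6.11 and 5.27 FPKM in the parental libraries, 12.02, 6.44 and 13.1 in EGFR-low and 6.97, 6.18 and 12.01 in EGFR-high. In the other experiment it stood at 6.15, 2.74 and 5.72 FPKM in EGFR-low DMSO, 0.56, 1.57 and 3.21 in EGFR-low vorinostat, 10.8, 13.2 and 11.2 in EGFR-high DMSO and 15.7, 12.6 and 10.8 in EGFR-high vorinostat. The untreated groups overlapped, and in the vorinostat experiment every library labelled EGFR-low lay under every EGFR-high one. TGFB1 was lower in EGFR-low by -1.17 with DMSO (SE 0.33, adjusted p = 0.0117) and by -2.44 with vorinostat (SE 0.33, adjusted p = 9.58e-05), the latter -3.08 to -1.42 over the alternatives with all libraries or with those that stood apart left out. The DMSO call was lost without EGFR-low DMSO replicate 2, at -0.87 and an adjusted p of 0.0565, the highest in a range that began at 0.0107 over the 6 libraries left out in turn. Over the other alternatives it was 0.00264 to 0.0378.

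TGFB3, the least abundant ligand, stood at 0.30, 0.37 and 0.20 FPKM in the parental libraries, 0.38, 0.49 and 0.38 in EGFR-low and 0.26, 0.15 and 0.39 in EGFR-high. In the vorinostat experiment it stood at 1.35, 1.91 and 1.93 FPKM in EGFR-low DMSO, 1.60, 2.03 and 1.93 in EGFR-low vorinostat, 0.46, 0.23 and 0.72 in EGFR-high DMSO and 0.48, 0.39 and 0.31 in EGFR-high vorinostat. The 6 libraries labelled EGFR-low of that experiment were above all other 15 libraries. Untreated TGFB3 lay under the filter, and an exact permutation test of EGFR-low against EGFR-high gave p = 0.3, where 0.1 is the smallest that 3 libraries against 3 can give. In the vorinostat experiment TGFB3 was higher in EGFR-low by 0.90 with DMSO (SE 0.16, adjusted p = 0.00076) and by 1.03 with vorinostat (SE 0.16, adjusted p = 0.00018). With 0.1 or 5 added to FPKM the fold changes were 1.76 or 0.30 with DMSO and 2.00 or 0.35 with vorinostat. It passed the filter there through its EGFR-low libraries alone, which favours such a difference, so the call adds no support.

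The make-up of the ligand pool follows from these levels. TGFB2 made up 43.1% to 74.6% of the summed ligand FPKM in the untreated libraries and 49.9% to 67.2% in the EGFR-high and 55.95% to 85.8% in the EGFR-low libraries of the vorinostat experiment. The untreated ratio of TGFB2 to TGFB1 was 1.36, 2.72 and 1.34 in EGFR-low and 1.98, 1.68 and 0.78 in EGFR-high, which overlap. In EGFR-low vorinostat the ratio was 23.4, 5.04 and 2.81, all above the 1.07 to 2.11 of EGFR-high vorinostat. With DMSO it was 1.55, 3.16 and 1.73 in EGFR-low and 2.09, 1.01 and 1.22 in EGFR-high, which overlap. The first EGFR-low vorinostat ratio came from a library in which TGFB1 was 3.67% of the ligand. TGFB3 made up 7.92% to 17.6% of the pool in the libraries labelled EGFR-low of the vorinostat experiment and 0.867% to 2.80% in the other 15. These shares were not tested.

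**Figure D2:**
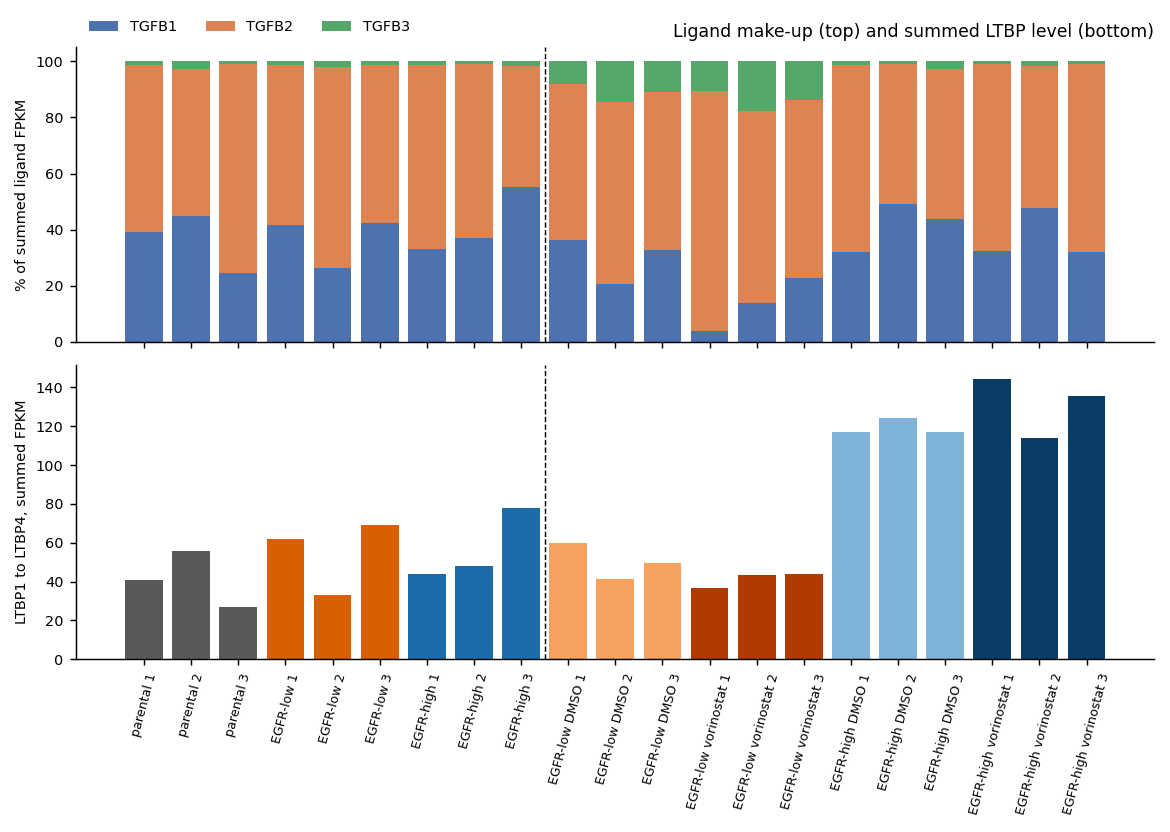
Share of each ligand in the summed FPKM of TGFB1, TGFB2 and TGFB3 (top, in percent) and summed FPKM of LTBP1 to LTBP4 (bottom), 1 bar per library, with the untreated experiment left of the dashed line. TGFB3 exceeds 7% only in the libraries labelled EGFR-low of the vorinostat experiment, and the LTBP sum exceeds 110 FPKM only in its EGFR-high libraries.

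The promoters of the members were read because TGFB1, LTBP2, LTBP3, LTBP4 and TGFBR3 were lower, and TGFB3 was higher, in the same libraries, with TGFB2 lower in those of vorinostat. All 10 members matched, with 23 RefSeq windows (GRCh38.p14) of 300 bases around a gene start. Each window was searched on both strands, overlapping matches included, for 6 motifs: the GC box GGGCGG, the cyclic AMP response element TGACGTCA, the CCAAT box CCAAT, the TATA motif TATAAA, and the E-boxes CACGTG and CAGGTG. The GC box was found in 12 of the 23 member windows, those of TGFB1, LTBP2, LTBP3, LTBP4 and the 3 receptors, beside 45.0% of all 35116 windows. TATAAA was found in 2 of 23, in TGFB2 and TGFB3, beside 11.5% of all windows, and CACGTG in 2 of 23, in the same 2 genes, beside 7.26%. Any link between the motifs and the levels was not tested. TGACGTCA was found in 1 of 23, in LTBP1, beside 1.85%. CCAAT was found in 8 of 23, in LTBP1, TGFBR1 and TGFBR2, beside 34.6%, and CAGGTG in 4 of 23, in LTBP3 and TGFBR1, beside 20.6%. Some members, TGFBR1 above all, have several windows, so shares by gene differ. By gene, the GC box was in 7 of 10 members beside 48.3% of all genes, and CCAAT in 3 beside 39.7%. TATAAA was in 2 beside 14.0%, CACGTG in 2 beside 8.77%, CAGGTG in 2 beside 24.1% and TGACGTCA in 1 beside 2.25%. Given 5′ to 3′ with matches in capitals are the GC box windows of TGFB1 (chr19:41353873-41354172, minus strand, 7 matches) and LTBP2 (chr14:74612188-74612487, minus strand, 3 matches), and the windows of TGFB2 (chr1:218345086-218345385, plus strand) and TGFB3 (chr14:75981946-75982245, minus strand) with TATAAA 29 and 30 bases before the start. CACGTG lies in the TGFB2 window shown and in another TGFB3 window. A match is a description of the letters and not a binding site.
TGFB1: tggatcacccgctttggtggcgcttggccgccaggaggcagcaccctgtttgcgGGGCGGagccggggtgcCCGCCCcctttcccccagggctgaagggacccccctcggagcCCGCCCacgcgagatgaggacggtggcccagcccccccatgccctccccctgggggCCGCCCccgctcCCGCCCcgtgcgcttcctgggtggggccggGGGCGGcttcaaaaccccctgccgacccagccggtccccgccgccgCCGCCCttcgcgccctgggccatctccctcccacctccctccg
LTBP2: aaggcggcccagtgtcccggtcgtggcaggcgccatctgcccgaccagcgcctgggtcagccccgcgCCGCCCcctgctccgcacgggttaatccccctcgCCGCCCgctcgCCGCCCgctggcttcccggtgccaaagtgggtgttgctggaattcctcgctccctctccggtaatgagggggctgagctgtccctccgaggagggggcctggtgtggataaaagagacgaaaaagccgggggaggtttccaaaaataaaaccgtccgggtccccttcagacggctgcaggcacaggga
TGFB2: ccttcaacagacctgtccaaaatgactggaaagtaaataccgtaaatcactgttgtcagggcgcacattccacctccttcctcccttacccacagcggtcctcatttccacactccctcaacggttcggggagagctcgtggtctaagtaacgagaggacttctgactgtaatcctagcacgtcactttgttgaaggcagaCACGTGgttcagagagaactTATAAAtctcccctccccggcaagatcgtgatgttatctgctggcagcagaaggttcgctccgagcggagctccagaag
TGFB3: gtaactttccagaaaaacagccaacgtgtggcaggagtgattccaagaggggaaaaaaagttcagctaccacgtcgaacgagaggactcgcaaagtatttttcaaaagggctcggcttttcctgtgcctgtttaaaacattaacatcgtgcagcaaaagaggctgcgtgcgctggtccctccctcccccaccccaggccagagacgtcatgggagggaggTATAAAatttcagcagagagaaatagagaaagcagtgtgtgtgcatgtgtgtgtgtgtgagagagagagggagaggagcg

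LTBP1, which carries latent TGFb into the matrix, stood at 6.03, 2.42 and 3.13 FPKM in the parental libraries, 10.0, 4.69 and 11.2 in EGFR-low and 3.42, 2.90 and 3.03 in EGFR-high. With DMSO or vorinostat it stood at 4.85, 4.87 and 4.41 FPKM in EGFR-low DMSO, 4.90, 3.84 and 3.26 in EGFR-low vorinostat, 2.84, 6.72 and 6.43 in EGFR-high DMSO and 9.83, 4.22 and 5.89 in EGFR-high vorinostat. Untreated EGFR-low libraries lay above all EGFR-high ones, and the groups of the vorinostat experiment overlapped. The untreated fold change was 1.15 (SE 0.34, adjusted p = 0.103), not called. With the replicate number as a block it was called (adjusted p = 0.0311), though these libraries paired by number only in part. The adjusted p was 0.00157 to 0.160 over alternatives with all libraries and 0.0300 to 0.351 with 1 left out. The fold change was also called without EGFR-low replicate 2 (1.49, adjusted p = 0.0300). With vorinostat it was -0.56 (SE 0.30, adjusted p = 0.124), and it passed the threshold only without EGFR-high vorinostat replicate 2 (-0.80, adjusted p = 0.0438), in a range of 0.0438 to 0.414 with 1 library left out and 0.0675 to 0.278 over the other alternatives. The fold change with vorinostat was -0.80 to -0.28 with 1 library left out. With DMSO it was -0.08 (SE 0.30, adjusted p = 0.833), and its sign changed without EGFR-high DMSO replicate 2 (0.10) or replicate 3 (0.07) and without the DMSO libraries between the populations (0.05).

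LTBP2, a matrix protein of the same family that does not itself bind latent TGFb, stood at 11.1, 13.1 and 9.61 FPKM in the parental libraries, 12.04, 6.06 and 13.4 in EGFR-low and 13.6, 14.4 and 22.2 in EGFR-high. After 72 h with DMSO or vorinostat it stood at 8.91, 4.19 and 4.81 FPKM in EGFR-low DMSO, 1.63, 3.86 and 3.31 in EGFR-low vorinostat, 23.9, 21.3 and 21.8 in EGFR-high DMSO and 22.9, 20.7 and 30.7 in EGFR-high vorinostat. EGFR-low libraries were below EGFR-high ones in both experiments. The untreated fold change was -0.66 (SE 0.31, adjusted p = 0.398), not called, and -0.85 to -0.34 with 1 library left out. It was called in 1 of 11 alternatives, the GC and length trend removed with the replicate block (adjusted p = 0.0132), in a range of 0.0132 to 0.466 over these and 0.364 to 0.816 with 1 library left out. LTBP2 was lower in EGFR-low by -1.80 with DMSO (SE 0.27, adjusted p = 0.00040) and by -2.74 with vorinostat (SE 0.27, adjusted p = 3.82e-05), and both calls held in each alternative fit and whichever library was left out.

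LTBP3, which helps latent TGFB1 to be secreted and stored, stood at 22.1, 35.9 and 12.8 FPKM in the parental libraries, 33.2, 17.9 and 34.8 in EGFR-low and 23.1, 25.7 and 45.8 in EGFR-high. In the other experiment it stood at 40.0, 27.0 and 34.9 FPKM in EGFR-low DMSO, 23.4, 30.3 and 32.1 in EGFR-low vorinostat, 77.1, 87.2 and 80.5 in EGFR-high DMSO and 96.2, 78.4 and 88.3 in EGFR-high vorinostat. The untreated groups overlapped, and the EGFR-high libraries of the vorinostat experiment were above all other libraries of the series. LTBP3 was lower in EGFR-low by -1.26 with DMSO (SE 0.16, adjusted p = 0.00033) and by -1.59 with vorinostat (SE 0.16, adjusted p = 3.82e-05), again in each alternative fit and whichever library was left out.

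LTBP4, which binds latent TGFB1 and elastic fibres, stood at 1.86, 4.56 and 1.13 FPKM in the parental libraries, 6.77, 4.63 and 9.97 in EGFR-low and 3.71, 5.09 and 6.73 in EGFR-high. In the vorinostat experiment it stood at 6.11, 5.15 and 5.28 FPKM in EGFR-low DMSO, 6.75, 5.43 and 5.28 in EGFR-low vorinostat, 12.9, 8.84 and 8.22 in EGFR-high DMSO and 15.4, 10.5 and 10.4 in EGFR-high vorinostat. Parental libraries were below all EGFR-low ones, and EGFR-low libraries were below EGFR-high ones in the vorinostat experiment alone. Against parental cells the fold change of EGFR-low was 1.28 (SE 0.37, adjusted p = 0.143), not called. It was called without parental replicate 2 (1.67, adjusted p = 0.0344, in a range of 0.0344 to 0.523 with 1 library left out and 0.00822 to 0.231 over the other alternatives). LTBP4 was lower in EGFR-low by -0.73 with DMSO (SE 0.19, adjusted p = 0.00755) and by -0.93 with vorinostat (SE 0.19, adjusted p = 0.00144).

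Summed over LTBP1 to LTBP4, the level was 26.7 to 77.7 FPKM in the untreated libraries, 36.7 to 59.9 in the libraries labelled EGFR-low of the vorinostat experiment and 114 to 144 in its EGFR-high libraries. LTBP3 made up 48.1% to 73.1% of that sum in the 21 libraries. The ratio of summed LTBP to summed ligand was 1.24 to 4.09 in the untreated libraries, 2.40 to 3.76 in EGFR-low and 2.98 to 4.63 in EGFR-high of the vorinostat experiment, so that these ranges overlap.

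TGFBR1, the type I receptor kinase, stood at 17.1, 11.9 and 17.6 FPKM in the parental libraries, 18.2, 16.7 and 17.7 in EGFR-low and 17.8, 16.8 and 12.1 in EGFR-high. With DMSO or vorinostat it stood at 13.7, 17.7 and 14.6 FPKM in EGFR-low DMSO, 15.1, 15.9 and 14.0 in EGFR-low vorinostat, 11.2, 9.86 and 12.4 in EGFR-high DMSO and 35.0, 10.0 and 10.1 in EGFR-high vorinostat. EGFR-high vorinostat replicate 1, a library with a high mitochondrial share, held the highest value of the series, while the other EGFR-high libraries of that experiment lay under all EGFR-low ones. The fold change was 0.42 with DMSO (SE 0.36, adjusted p = 0.343) and -0.04 with vorinostat (SE 0.36, adjusted p = 0.938). Without the vorinostat libraries numbered 1, TGFBR1 was higher in EGFR-low with DMSO (0.42, adjusted p = 0.0151) and with vorinostat (0.53, adjusted p = 0.0143), in ranges of 0.00627 to 0.567 and 0.00917 to 0.973 over the alternatives other than single libraries left out. With 1 library left out the ranges were 0.337 to 0.562 with DMSO and 0.00635 to 0.987 with vorinostat. Leaving out EGFR-high vorinostat replicate 1 alone gave 0.53 with vorinostat (adjusted p = 0.00635), and leaving out EGFR-low vorinostat replicate 3 gave 0.01 (adjusted p = 0.987).

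TGFBR2, the type II kinase that binds the ligand first, stood at 10.2, 5.17 and 8.37 FPKM in the parental libraries, 6.31, 4.87 and 6.43 in EGFR-low and 8.68, 6.03 and 8.14 in EGFR-high. After 72 h with DMSO or vorinostat it stood at 11.1, 14.2 and 14.8 FPKM in EGFR-low DMSO, 14.2, 12.7 and 13.7 in EGFR-low vorinostat, 9.93, 8.68 and 9.83 in EGFR-high DMSO and 22.7, 9.16 and 8.03 in EGFR-high vorinostat. The untreated groups overlapped, though each EGFR-low library lay under the EGFR-high library of the same number. The fold change was -0.32 (SE 0.27, adjusted p = 0.744), not called with the replicate block either (adjusted p = 0.290, in a range of 0.162 to 0.808 over alternatives with all libraries and 0.646 to 0.949 with 1 left out). EGFR-high vorinostat replicate 1 again held the highest value. In the vorinostat experiment the fold change was 0.45 with DMSO (SE 0.29, adjusted p = 0.209) and 0.16 with vorinostat (SE 0.29, adjusted p = 0.639). Without the vorinostat libraries numbered 1 it was higher in EGFR-low with DMSO (adjusted p = 0.0114) and with vorinostat (0.56, adjusted p = 0.0102), in ranges of 0.0032 to 0.42 and 0.00407 to 0.996 over the alternatives other than single libraries left out. With 1 library left out the ranges were 0.166 to 0.392 with DMSO and 0.00365 to 0.981 with vorinostat. Without EGFR-high vorinostat replicate 1 alone it was 0.60 with vorinostat (adjusted p = 0.00365). It was -0.01 without replicate 2 and -0.10 without replicate 3 of the same group.

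TGFBR3, the co-receptor betaglycan, stood at 7.63, 4.003 and 6.39 FPKM in the parental libraries, 5.10, 2.60 and 4.91 in EGFR-low and 9.84, 7.35 and 9.26 in EGFR-high. In the other experiment it stood at 1.18, 0.0695 and 0.0713 FPKM in EGFR-low DMSO, 0.041, 0.058 and 0.0282 in EGFR-low vorinostat, 3.21, 4.35 and 3.89 in EGFR-high DMSO and 1.83, 6.26 and 2.70 in EGFR-high vorinostat. EGFR-low libraries were below EGFR-high ones in both experiments, and 5 of the 6 of the vorinostat experiment lay under 0.1 FPKM, all but EGFR-low DMSO replicate 1, a library between the populations. The untreated fold change was -0.95 (SE 0.29, adjusted p = 0.119), not called. It was called with the replicate block (adjusted p = 0.0124), in a range of 0.00098 to 0.165 over alternatives with all libraries and 0.1855 to 0.332 with 1 left out. TGFBR3 was lower in EGFR-low by -1.82 with DMSO (SE 0.33, adjusted p = 0.00104) and by -2.02 with vorinostat (SE 0.33, adjusted p = 0.00033). With 0.1 or 5 added to FPKM in place of 1 the fold changes were -3.54 or -0.70 with DMSO and -4.52 or -0.74 with vorinostat, so their size depends on this choice. TGFBR3 passed the filter of the vorinostat experiment through its EGFR-high libraries, which favours such a difference, so the call adds no support.

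The ratio of TGFBR1 to TGFBR2 was 2.89, 3.43 and 2.76 in untreated EGFR-low, 2.05, 2.79 and 1.48 in EGFR-high and 1.69, 2.30 and 2.11 in parental cells. Only EGFR-high replicate 2 reached into the EGFR-low range. In the vorinostat experiment the ratio was 0.983 to 1.54 in all 12 libraries.

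**Figure D3:**
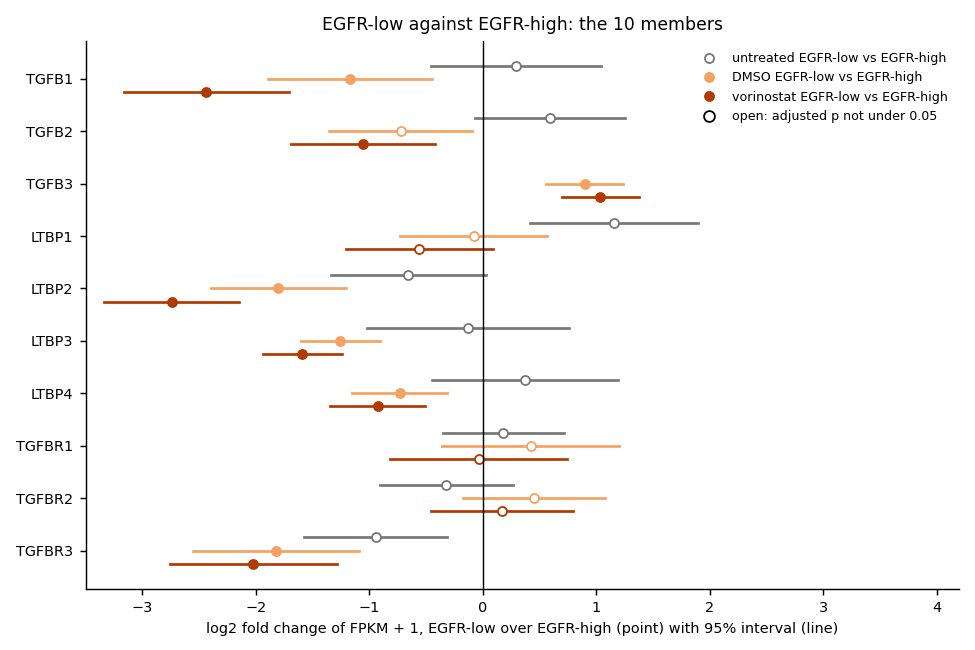
Fold change of EGFR-low over EGFR-high on the log2 scale of FPKM + 1 (points) with its 95% interval (lines) for each member, untreated, with DMSO and with vorinostat, filled where the adjusted p is under 0.05. No untreated point is filled, and TGFB3 is not tested there. The filled points of the vorinostat experiment lie left of 0, except for TGFB3.

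Untreated EGFR-low against EGFR-high asks which genes differ between the sorted populations. Their EGFR level cannot be told apart from other differences between these populations. TGFB2 and LTBP1 were above, and LTBP2 and TGFBR3 below, the EGFR-high libraries in all 3 EGFR-low libraries. That is 4 of 10 members with groups that do not overlap, beside 20.6% of all genes tested. By limma 0 of 9 members tested were called, where 3.81% of 11305 genes were. Among all genes 1529, 13.5%, had an unadjusted p under 0.05, as did 2 members, LTBP1 and TGFBR3. With the replicate block 2 members and 965 genes, 8.54%, were called. Within replicate numbers 6 of 10 members kept 1 direction in all 3 pairs of libraries, beside 49.2% of all genes. TGFB1, TGFB2 and LTBP1 were above, and LTBP2, TGFBR2 and TGFBR3 below, the EGFR-high library of the same number. With the block and the GC and length trend removed 5 members were called, TGFB1, LTBP1 and LTBP4 higher and LTBP2 and TGFBR3 lower, beside 22.2% of all genes. The number of genes called fell from 431 with all libraries to 174 without EGFR-low replicate 1 and to between 207 and 286 without any other of the 6.

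Other genes of the pathway were read as 5 lists in the same comparison. The lists share genes, since SKIL, PMEPA1 and SMAD7 stand among both the inhibitors and the induced genes, and ITGB6 among both the latency and the induced genes. Of 12 genes tested for latency, storage and activation, 2 were higher and 0 lower, with a median of 0.11 beside -0.03 over all genes. FN1, the matrix protein fibronectin, stood at 78.3, 22.2 and 76.8 FPKM in EGFR-low and 8.47, 3.94 and 8.497 in EGFR-high (2.78, SE 0.52, adjusted p = 0.0127). ITGB3, the integrin beta 3 chain that pairs with alpha v, stood at 4.60, 6.15 and 7.71 against 0.296, 0.318 and 0.228 FPKM (2.46, SE 0.21, adjusted p = 8.37e-05). Both genes separated the populations without overlap. ITGB3 passed the filter through its EGFR-low libraries alone, which favours such a difference, and it was not tested when 1 of them was left out. ITGAV, its alpha v partner, was not called (0.34, SE 0.21, adjusted p = 0.587), though it too was above EGFR-high in all 3 pairs. The count of 2 fell to 0 without EGFR-low replicate 1, to 1, FN1, without EGFR-low replicate 2 and to 1, ITGB3, without EGFR-high replicate 2. Without EGFR-low replicate 3 neither of these was called, and the 1 gene called was TGM2, which had no call with all libraries. FN1 was not called without the EGFR-low replicates 1 (2.48, adjusted p = 0.0691) or 3 (2.49, adjusted p = 0.0631) or EGFR-high replicate 2 (2.46, adjusted p = 0.0552).

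Of 11 receptor partners and SMAD transducers, 1 was lower and 0 higher, with a median of 0.02. It was ENG, endoglin, a co-receptor, at 0.687, 0.305 and 1.16 FPKM in EGFR-low and 4.89, 5.58 and 10.3 in EGFR-high (-2.18, SE 0.34, adjusted p = 0.00461). Of 14 inhibitors, 1 was higher and 0 lower, with a median of -0.09. It was SKIL, a repressor of SMAD complexes, at 43.9, 50.2 and 51.0 against 22.4, 23.1 and 20.6 FPKM (1.097, SE 0.23, adjusted p = 0.0199), and its call was lost when any 1 of the 6 libraries was left out (adjusted p of 0.0545 to 0.1003). Of 21 genes that TGFb is known to induce, 2 were higher and 2 lower with a median of 0.10. The higher genes were SKIL, counted in this list as well, and TAGLN, a smooth muscle actin binding protein (13.9, 5.59 and 20.0 against 0.863, 0.6 and 1.97 FPKM; 2.62, SE 0.41, adjusted p = 0.0047). TAGLN reached the filter only with its EGFR-low libraries, which favours such a difference, so the call adds no support. TPM1, a tropomyosin, was lower (-1.52, SE 0.30, adjusted p = 0.0164), as was IGFBP3, an insulin-like growth factor binding protein (-1.47, SE 0.28, adjusted p = 0.0128). TPM1 lost its call without any library but EGFR-high replicate 2 (adjusted p of 0.055 to 0.0911). IGFBP3 lost it without EGFR-low replicate 1 or 3 or EGFR-high replicate 1 or 2 (adjusted p of 0.0562 to 0.0721). The list's 4 calls fell to 1 without EGFR-low replicate 1 or 3 or EGFR-high replicate 1, and to 2 without EGFR-high replicate 2 or 3. Of 7 genes tested of the activin branch, which shares SMAD2 and SMAD3, 0 were called, with a median of -0.18. No test compared the lists with each other.

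Most of these counts were higher under 3 of the alternatives. With the replicate block the calls were 3 around latency, 3 among receptor partners, 3 among inhibitors and 7 among induced genes. With the GC and length trend removed they were 4, 3, 1 and 9 in the same order, and with both changes 5, 5, 3 and 14. The activin branch held 1, 2 and 3 calls in these fits. The share of all genes called rose as well, from 3.81% to 8.54%, 8.45% and 22.2% in these fits, so the larger counts cannot be read as particular to the lists.

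Untreated EGFR-low against parental cells asks how far the sorted cells moved from the line they came from. TGFB2, TGFB3 and LTBP4 were above the parental libraries in all 3 EGFR-low libraries, so that 3 of 10 members did not overlap, beside 17.1% of all genes. By limma 0 of 9 members were called, where 1.6% of genes were. Among all genes 1668, 14.8%, had an unadjusted p under 0.05, as did 2 members, LTBP1 (0.98, SE 0.34, adjusted p = 0.218) and LTBP4. With the block and the GC and length trend removed 4 were called, TGFB2, LTBP1 and LTBP4 higher and LTBP2 lower, beside 21% of all genes. The libraries numbered 3 of these groups did not pair, with residuals that correlated at -0.092. The 181 genes called fell to 33 and 55 with EGFR-low replicate 1 or 3 left out, and to 78 and 104 with parental replicate 1 or 3 left out. They fell to 125 without EGFR-low replicate 2 and rose to 254 without parental replicate 2.

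The lists held 3 calls against parental cells. Of the 12 latency genes 2 were higher and 0 lower, with a median of 0.30 beside 0.06 over all genes. They were FN1 (2.59, SE 0.52, adjusted p = 0.0319), at 10.2, 3.70 and 11.6 FPKM in parental cells, and ITGB3 (2.22, SE 0.21, adjusted p = 0.00041), at 0.336, 0.743 and 0.474. Of the 21 induced genes 1 was higher, TAGLN (2.78, SE 0.41, adjusted p = 0.00603), at 0.355, 0.934 and 1.40 FPKM in parental cells, with a median of 0.36. The other 3 lists held 0 calls. ITGB3 and TAGLN reached the filter only with their EGFR-low libraries, so their calls add no support. With the block 2 latency and 2 induced genes were called, with the GC and length trend removed 3 and 4, and with both changes 5 and 11, where 4.64%, 4.82% and 21% of all genes were called in place of 1.6%. The other lists then held calls too, 0, 2 and 3 among receptor partners, 3, 2 and 4 among inhibitors and 1, 2 and 2 in the activin branch. FN1 lost its call without any library but EGFR-low replicate 2 (adjusted p of 0.0536 to 0.187) and in 2 of 11 alternatives with all libraries, no filter on low values (0.0788) and only the compared groups in the fit (0.0537), and TAGLN lost it without EGFR-low replicate 1 (2.67, adjusted p = 0.0532). The latency count, to which ITGB3 cannot add once an EGFR-low library is left out, was 0 without EGFR-low replicate 1 or 3 and 1 without any other library, and the induced count was 2 without parental replicate 2 and 0 without EGFR-low replicate 1.

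Untreated EGFR-high against parental cells asks how far the other sorted population moved from the line. LTBP2 was above the parental libraries in all 3 EGFR-high libraries, the only 1 of 10 members without overlap, beside 16.2% of all genes. By limma 0 of 9 members were called, where 0.0708% of genes were. Among all genes 1093, 9.67%, had an unadjusted p under 0.05, as did 1 member, LTBP4 (0.90, SE 0.37, adjusted p = 0.507). All 5 lists held 0 calls. The 8 genes called fell to between 2 and 4 without any library but parental replicate 2.

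With DMSO, the libraries labelled EGFR-low differed from EGFR-high in most members and most genes. TGFB1, LTBP2, LTBP3, LTBP4 and TGFBR3 were lower and TGFB3 was higher, so that 6 of 10 members were called, where 51.8% of 12236 genes were. The share is near that of all genes, and 2 of the 6, TGFB3 and TGFBR3, were tested only through the population in which they are higher. By overlap 9 of 10 members separated the groups, beside 69.3% of all genes. Without the DMSO libraries between the populations the same number, 6, was called, and without the vorinostat libraries numbered 1 or without all 4 it was 9, with TGFB2 lower and TGFBR1 and TGFBR2 higher, where 61.6% and 63.2% of all genes were called. A fit of only the compared groups, chosen beforehand, gave the same 9 members beside 57.4% of all genes. A filter of 5 FPKM gave 4, with TGFB3 and TGFBR3 no longer tested, beside 51.3%. Scaling by median of ratios moved the median fold change of all genes from 0.12 to 0.00 and the share of higher genes among the calls from 60.1% to 49.8%, and TGFB2 was then called as well.

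The list counts with DMSO stand beside 51.8% of all genes called and a median of 0.12 over all genes, and the lists were not tested against all genes. Around latency 2 of 12 genes were higher and 4 lower, with a median of -0.57. TGM2, a transglutaminase that cross-links LTBPs into the matrix, stood at 65.4, 11.7 and 7.55 FPKM in EGFR-low DMSO and 305, 256 and 208 in EGFR-high DMSO (-3.72, SE 0.60, adjusted p = 0.00055). MMP14, a membrane protease, was lower (-1.70, SE 0.22, adjusted p = 0.00033), but it reached the filter only with its EGFR-high libraries, which favours such a difference, so the call adds no support. ITGAV was higher (0.89, SE 0.14, adjusted p = 0.00055), at 22.1, 24.1 and 26.7 against 12.6, 11.7 and 13.5 FPKM, without overlap. ITGB3, at 4.34, 2.91 and 1.98 against 0.925, 0.748 and 2.01 FPKM, was not called (0.87, SE 0.49, adjusted p = 0.153), but it was called without the vorinostat libraries numbered 1 (adjusted p = 0.0135) and without all 4 (adjusted p = 0.00118), in a range of 0.00118 to 0.235 over the alternatives other than single libraries left out and 0.111 to 0.334 with 1 left out. FN1 was higher (2.04, SE 0.66, adjusted p = 0.0231), but not without EGFR-low DMSO replicate 2 or 3 or EGFR-high DMSO replicate 1 or 2 (adjusted p of 0.0635 to 0.0873).

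Among receptor partners 3 of 11 genes were higher and 3 lower with DMSO, a share of calls near that of all genes, and their median was -0.20. ACVR1, an activin and BMP type I receptor, stood at 14.7, 16.4 and 17.2 against 2.35, 2.58 and 5.96 FPKM (1.97, SE 0.23, adjusted p = 0.00033). ENG was higher as well (0.94, SE 0.20, adjusted p = 0.00264), at 14.0, 22.0 and 18.4 against 6.56, 9.06 and 11.4 FPKM. TAB1, an adaptor of the kinase TAK1, was lower (-0.48, SE 0.18, adjusted p = 0.0428), but not when any 1 of the 6 libraries was left out (adjusted p of 0.0673 to 0.128). Among 14 other alternatives its call was lost in 2, when low values were not filtered (0.0594) and without the DMSO libraries between the populations (0.0943). The 6 calls of this list fell to 2 without EGFR-low DMSO replicate 2, and to 3 without EGFR-low DMSO replicate 3, any 1 of the EGFR-high DMSO libraries or both libraries between the populations. The share of all genes called fell as well, from 51.8% to 40.2% without EGFR-low DMSO replicate 2 and 40.4% without EGFR-low DMSO replicate 3. It was 42.5%, 41.2% and 50.6% without EGFR-high DMSO replicates 1, 2 and 3, and 49.5% without both libraries between the populations.

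Of 14 inhibitors 6 were lower and 1 was higher with DMSO, again a share of calls near that of all genes, with a median of -0.29. PMEPA1, which holds SMAD2 and SMAD3 back, stood at 41.1, 18.5 and 20.1 against 126, 90.1 and 86.8 FPKM (-1.96, SE 0.35, adjusted p = 0.00087). SKIL (-0.72, SE 0.22, adjusted p = 0.0154) and NEDD4L, a ubiquitin ligase (-0.66, SE 0.22, adjusted p = 0.0252), were lower too. Both lost their call without EGFR-low DMSO replicate 2 or 3 or EGFR-high DMSO replicate 2 (adjusted p of 0.0518 to 0.0962). The 7 calls of the list fell to 4 without EGFR-low DMSO replicate 2 or 3, where 40.2% and 40.4% of all genes were called in place of 51.8%.

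Genes that TGFb induces moved both ways with DMSO, 6 of 25 higher and 10 lower, with a median of -0.59. Of these 16 calls 3 were of genes that reached the filter only with 1 population, and 2, SKIL and PMEPA1, are counted among the inhibitors as well. IGFBP3 was lower (-2.95, SE 0.51, adjusted p = 0.00074), at 48.5, 15.1 and 9.53 against 165, 140 and 164 FPKM. TGFBI, a matrix protein named for its induction by TGFb, was higher (2.59, SE 0.58, adjusted p = 0.00335), at 388, 934 and 642 against 79.7, 56.7 and 230 FPKM. In the activin branch 2 of 7 genes were higher and 2 lower, with a median of -0.06. INHBA, the activin A subunit, stood at 3.32, 0.0585 and 0.0433 against 18.5, 8.86 and 11.9 FPKM (-3.01, SE 0.67, adjusted p = 0.00316), FSTL3, an activin antagonist, was lower (-1.001, SE 0.25, adjusted p = 0.0056), and GDF11, a ligand of the activin receptors, was higher (0.96, SE 0.26, adjusted p = 0.0101). INHBA reached the filter only with its EGFR-high libraries, so its call adds no support. The library between the populations, EGFR-low DMSO replicate 1, held the value nearest to EGFR-high in TGM2, IGFBP3, INHBA and TGFBR3.

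The members called with vorinostat were those called with DMSO, and TGFB2. TGFB1, TGFB2, LTBP2, LTBP3, LTBP4 and TGFBR3 were lower and TGFB3 was higher in EGFR-low, so that 7 of 10 members were called, where 59% of genes were, and the same 7 did not overlap, beside 60.8% of all genes. No test compared the members with all genes, of which most were called as well. TGFBR1 and TGFBR2, which separated the groups with DMSO, overlapped with vorinostat. TGFB3 and TGFBR3 were again tested only through 1 population. The count stayed at 7 without the DMSO libraries between the populations and rose to 9, with TGFBR1 and TGFBR2 higher, without the vorinostat libraries numbered 1 or without all 4, where 60.5% and 62.9% of all genes were called. It was 7 beside 50.4% of all genes in a fit of only the compared groups, and 5 beside 59.2% with a filter of 5 FPKM. Scaling by median of ratios moved the median fold change of all genes from 0.16 to 0.00 and the share of higher genes among the calls from 61.3% to 50.2%, with 7 members called as before. ITGAV was higher (0.57, SE 0.14, adjusted p = 0.00545), though not after that scaling (0.40, adjusted p = 0.0513, in a range of 0.00196 to 0.0513 over the alternatives other than single libraries left out and 0.00085 to 0.0229 with 1 left out).

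The list counts with vorinostat stand beside 59% of all genes called and a median of 0.16 over all genes, and their difference from DMSO was not tested for the lists as a whole. Around latency 2 of 12 genes were higher and 6 lower, with a median of -0.74. TGM2 stood at 5.08, 11.1 and 8.87 against 607, 311 and 314 FPKM (-5.44, SE 0.60, adjusted p = 4.39e-05), and MMP14, with the same limit from the filter, was lower (-1.98, SE 0.22, adjusted p = 4.29e-05). THBS1, thrombospondin 1, which can activate latent TGFb, was lower (-1.96, SE 0.55, adjusted p = 0.00975), but not without the vorinostat libraries numbered 1 (-1.26, adjusted p = 0.0565) or without all 4 (adjusted p = 0.0611, in a range of 0.00433 to 0.0611 over the alternatives other than single libraries left out and 0.0003 to 0.0314 with 1 left out). Among receptor partners 3 of 11 were higher and 5 lower, with ACVR1 (2.13, SE 0.23, adjusted p = 4.31e-05) and ENG (1.39, SE 0.20, adjusted p = 0.00016) higher and TAB1 lower (-0.72, SE 0.18, adjusted p = 0.00503). Their 8 calls fell to 5 without EGFR-low vorinostat replicate 1, where 55.7% of all genes were called, and their median was -0.09.

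Of 14 inhibitors 8 were lower and 1 was higher with vorinostat, with a median of -0.55. The largest changes were in PMEPA1 (-2.74, SE 0.35, adjusted p = 6.74e-05), SKIL (-1.08, SE 0.22, adjusted p = 0.00119) and SKI, a SMAD repressor (-0.93, SE 0.15, adjusted p = 0.00025). Of 25 induced genes 6 were higher and 12 lower, with a median of -0.48, and 4 of these 18 calls were of genes that reached the filter only with 1 population. SKIL, PMEPA1 and SMAD7 are counted in both of these lists. IGFBP3 stood at 1.75, 3.59 and 6.50 against 434, 223 and 214 FPKM (-5.92, SE 0.51, adjusted p = 3.82e-05), and TGFBI at 780, 953 and 836 against 260, 62.9 and 62.2 (3.07, SE 0.58, adjusted p = 0.00084). In the activin branch 2 of 7 genes were higher and 4 lower, with a median of -0.45. INHBA stood at 0.106, 0.0268 and 0.0392 against 82.0, 9.85 and 23.4 FPKM (-4.73, SE 0.67, adjusted p = 0.00012), FSTL3 was lower (-1.63, SE 0.25, adjusted p = 0.00019) and GDF11 higher (1.02, SE 0.26, adjusted p = 0.00591). INHBA has the same limit from the filter as with DMSO.

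**Figure D4:**
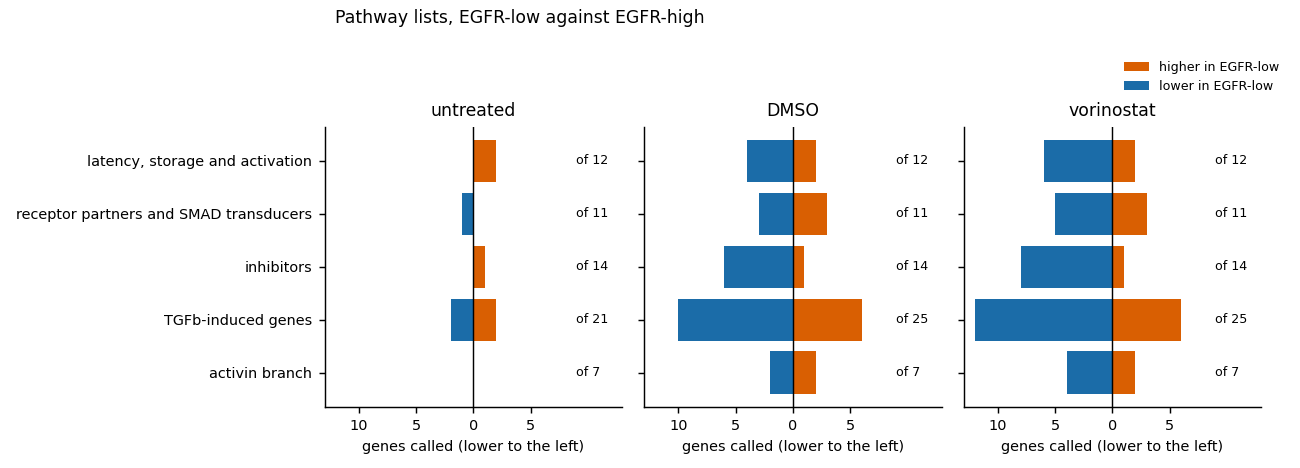
Number of genes called higher (right of 0) or lower (left of 0) in EGFR-low than in EGFR-high in 5 lists of the pathway, untreated, with DMSO and with vorinostat, beside the number tested. In the vorinostat experiment lower genes outnumber higher ones in the latency, inhibitor and induced lists.

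Vorinostat itself gave no called change in these genes or in any other gene tested. A fit without any call cannot show that these genes stayed the same. In EGFR-low cells TGFB1 was lower on average with vorinostat than with DMSO (-1.14, SE 0.33) and so was LTBP2 (-0.81, SE 0.27), the 2 members with an unadjusted p under 0.05, each with an adjusted p of 0.9999. The size of both depended on the fit. With 1 library left out TGFB1 was -1.49 to -0.78 and LTBP2 -0.997 to -0.53. Over the other alternatives, those without the libraries that stood apart included, TGFB1 was -1.61 to -0.54 and LTBP2 -1.01 to -0.26. LTBP2 and TGFBR3 were below DMSO in all 3 vorinostat libraries, 2 of 10 members beside 9.46% of all genes, while TGFB1 overlapped. By limma 0 of 10 members were called, where 0% of 12236 genes were and 115 genes, 0.94%, had an unadjusted p under 0.05. In EGFR-high cells 0 of 10 members were called, again where 0% of genes were. There 0 members and 409 genes, 3.34%, had an unadjusted p under 0.05. All 10 members overlapped there, beside 5.33% of all genes that did not.

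The difference between these responses, EGFR-low minus EGFR-high, was tested as an interaction. It was called in 0 of 10 members, where 0% of genes were called and 215, 1.76%, had an unadjusted p under 0.05. The 2 members among those were TGFB1 (-1.27, SE 0.47) and LTBP2 (-0.94, SE 0.38), both with an adjusted p of 0.999. With 1 library left out TGFB1 was -1.62 to -0.91 and LTBP2 -1.12 to -0.65. Over the other alternatives TGFB1 was -1.745 to -0.57 and LTBP2 -1.14 to -0.42. In all 3 of these comparisons the 5 lists held 0 calls.

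A few genes followed single members across both experiments. Likeness was the lower of 2 Pearson correlations of log2(FPKM + 1), 1 over the 9 untreated and 1 over the 12 other libraries, which share populations and replicate sets. For TGFB2 the closest 5 were SLC39A8 (0.891), NBEA (0.882), LRRC1 (0.852), NTN4 (0.844) and TMEM181 (0.836). For TGFBR2 they were CAST (0.894), RALGAPA2 (0.848), AKAP2 (0.842), FYCO1 (0.827) and NF2 (0.827). No member was among these. For LTBP1 the closest gene reached 0.771. In all, 11118 genes were tested in both experiments, and the likeness to be found by chance was not tested. Some pairs of members changed sign between the experiments. TGFB2 and LTBP4 had a correlation of -0.12 over the untreated and 0.94 over the other libraries, and TGFBR2 and TGFBR3 had 0.81 and -0.60. Others kept their sign, such as TGFB2 and LTBP1 with 0.70 and 0.48, and LTBP1 and LTBP4 with 0.42 and 0.41. These pairs are examples, and their difference between the experiments was not tested.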

How the data were processed

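The authors deposited 1 table of FPKM values, estimated by Cufflinks, for each of the 2 experiments. The tables are named as counts but hold FPKM, so the depth of each library is unknown. The submitters' processing notes name STAR 2.5.1b, Cufflinks 2.2.1, DESeq2 1.10.1 and build hg19. Summed FPKM per library was 467897 to 592942.

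Each experiment was fitted alone in R 4.3.3 with limma 3.58.1 (lmFit, eBayes with a mean-variance trend) on log2(FPKM + 1), with 1 mean per group and no replicate block, for 11305 and 12236 genes. The experiments were not tested against each other. The fit was tested on simulated data, and no result given here rests on that check. Replicates with the same number were checked for pairing, by the correlation of their residuals: every pair exceeded 0.1 for untreated EGFR-low and EGFR-high (0.343, 0.73 and 0.689), for EGFR-low and EGFR-high with vorinostat (0.353, 0.351 and 0.163), and for EGFR-low with vorinostat and DMSO (0.267, 0.302 and 0.329). Pairing was partial even there. Untreated EGFR-low replicate 1 and EGFR-low vorinostat replicate 3 each correlated better with an EGFR-high library of another number. The untreated block fit also held the parental libraries, whose number 3 correlated at -0.092 with EGFR-low and -0.00229 with EGFR-high. Among the comparisons named, the block changed member calls only for untreated EGFR-low and EGFR-high.

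TGFB3 lay under the filter in the untreated experiment and was compared there by an exact permutation test of mean FPKM. The members and lists were chosen with earlier results of these data known. Named genes are the 10 members, up to 3 called genes of each list and comparison with the largest absolute fold change, EGFR as a check, ITGAV and ITGB3 because the study measured them, and the 5 genes most similar to TGFB2 or TGFBR2. Alternatives were the pseudocount, the filter on low values, scaling, the groups fitted, the block, the trend, removal of the GC and length trend, and each library left out. Leaving out libraries that stood apart was added after seeing the data. Of 4 endothelial markers, PECAM1 was absent from the tables. Sequences are from RefSeq and GENCODE 29. Python 3.11.15, numpy 2.4.6, pandas 2.3.3 and matplotlib 3.10.9 were used.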

Additional observations from a re-analysis of the deposited data

Results flagged for a closer look

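In 5 genes the libraries labelled EGFR-low and EGFR-high separated without overlap in opposite directions in the 2 experiments, and the difference between the experiments was not tested. How many of all genes did so was not counted, so the 5 cannot be read as particular to this pathway. Of all genes, 20.6% untreated, 69.3% with DMSO and 60.8% with vorinostat separated without overlap. Values are log2 fold changes of EGFR-low over EGFR-high. TGFB2 had 0.59 untreated, -0.72 with DMSO and -1.06 with vorinostat. ENG had -2.18 untreated, 0.94 with DMSO and 1.39 with vorinostat. SKIL had 1.097 untreated, -0.72 with DMSO and -1.08 with vorinostat. TAGLN had 2.62 untreated, -0.76 with DMSO and -0.50 with vorinostat. GDF11 had -0.60 untreated, 0.96 with DMSO and 1.02 with vorinostat. TAGLN reached the filter only with EGFR-low libraries in the untreated experiment and only with EGFR-high libraries in the other, and GDF11 did so only with EGFR-high libraries in the untreated experiment.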

How the results depend on the processing

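Member counts of the vorinostat experiment stayed within 1.5 times their value in each alternative, including those added after seeing the data. For untreated EGFR-low against EGFR-high the count rose from 0 to 1 with quantile normalization, to 2 with the replicate block, to 2 with the GC and length trend removed and to 5 with both of these, while the share of all genes called rose from 3.81% to 4.28%, 8.54%, 8.45% and 22.2%. It was 0 to 1 with 1 library left out. For EGFR-low against parental cells, whose libraries numbered 3 did not pair, it was 0 to 1 with 1 library left out. It rose from 0 to 4 with the GC and length trend removed and the block, where the share of all genes rose from 1.6% to 21%. The cause was not tested.

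Over the 77 tests of members in the 8 comparisons, 32 fold changes had the other sign in at least 1 alternative, and 0 of these were called with all libraries by limma. They were 1 for untreated EGFR-low against EGFR-high (LTBP3), 2 and 6 against parental cells, 1 with DMSO, 2 with vorinostat, 6 and 8 for vorinostat against DMSO in EGFR-low and EGFR-high, and 6 for the interaction. Among members whose test the text gives, 3 changed sign. LTBP1 with DMSO was -0.41 to 0.10 with 1 library left out, 0.0952 without EGFR-high DMSO replicate 2 and 0.0682 without replicate 3, and 0.0497 without the DMSO libraries between the populations and without all 4 that stood apart. TGFBR1 with vorinostat was -0.32 to 0.53 with 1 library left out, at 0.00974 without EGFR-low vorinostat replicate 3 and 0.532 without EGFR-high vorinostat replicate 1, and 0.525 without the vorinostat libraries numbered 1 or all 4. TGFBR2 with vorinostat was -0.00212 with median-of-ratios scaling and -0.10 to 0.60 with 1 library left out, at -0.0101 and -0.0960 without EGFR-high vorinostat replicates 2 and 3. Of the single genes followed through every alternative, a subset of those tested, 864 values with all libraries and a choice made beforehand kept direction and side of the threshold, 21 gained a call, 6 lost it and 1 changed sign. With 1 library left out 440 kept both, 4 gained a call, 48 lost it and 6 changed sign. In the DMSO comparison, where the replicates did not pair, the block added TGFB2 (adjusted p = 0.00907, in a range of 0.00594 to 0.0902, and 0.0545 to 0.208 with 1 library left out). Since the depth is unknown, no limit of detection can be given for levels near 0.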
